A study of Mus musculus with 6 samples.

Results

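Transcripts of 10 transcription factor genes of the first embryonic lineages were followed in mouse oocytes and 4-cell embryos labelled YAP-null or wild type. The genes are the Gata family members Gata1, Gata2, Gata3, Gata4 and Gata6, and the trophectoderm factors Cdx2, Eomes, Tfap2a, Tfap2c and Id2. They were chosen by gene symbol, and all 10 were found among the 23308 symbols of the gene tables. YAP, encoded by Yap1, is a coactivator of transcription that the Hippo kinases keep out of the nucleus. The groups were YAP-null 4-cell embryos (1 library), wild-type 4-cell embryos (1 library), YAP-null germinal vesicle (GV) oocytes (2 libraries) and wild-type GV oocytes (2 libraries). GV oocytes are fully grown oocytes arrested in meiotic prophase. All libraries came from ICR-background females aged 21 to 23 days that were injected with the gonadotrophins PMSG/hCG, and the embryos came from mated females. The YAP-null label is written YAP-/- and Yap1-deleted, and it is given for the females as well as for their oocytes and embryos. The labels name no Cre driver and say nothing of the males. Each library pooled 60 oocytes or embryos, so no value belongs to a single embryo, and fewer expressing cells cannot be told apart from less RNA per cell. Nothing in the labels says whether the 2 libraries of a GV group came from separate females, so p-values measure the spread between these libraries only.

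GATA factors are zinc finger proteins that bind GATA motifs in DNA. Gata1 and Gata2 are best known for blood cell development, Gata3 for T cells and, with Cdx2, for the trophectoderm, the outer epithelium of the blastocyst that forms the placenta. Gata4 and Gata6 drive the primitive endoderm, the inner layer that forms the yolk sac. Cdx2 (a caudal homeobox factor), Eomes (a T-box factor), Tfap2a and Tfap2c (AP-2 factors) and Id2 (an inhibitor of E proteins) act in or mark the trophectoderm lineage. In blastocyst-forming embryos YAP works with TEAD4 in outer cells to switch on Cdx2 and Gata3.

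Levels are given as FPKM, the fragment count scaled to transcript length and library size, as the authors deposited them. The range in brackets after some values is the lower and upper bound deposited with each, whose confidence level is not given and which covers 1 library only. Between 9984 and 10823 genes reached 1 FPKM in each library, and the read totals are unknown. The width of the bounds gave each library's depth relative to wild-type GV library 1, at 0.807 for the YAP-null and 0.982 for the wild-type 4-cell library and 0.356 to 0.434 for the remaining 3 GV libraries. Values under 1 FPKM in those 3 libraries often carry a lower bound of 0. The 10 oocyte markers summed to 1124 FPKM in the YAP-null embryo library and 165 FPKM in the wild-type one, against 7089 to 10810 FPKM in oocytes, which sets the 4-cell libraries apart from oocytes as their titles say, although their source field names oocytes. Yap1 stood at 33.3 FPKM in YAP-null embryos and 89.7 FPKM in wild-type embryos. In GV oocytes it was at 10.8 and 10.04 FPKM in YAP-null libraries 1 and 2, against 248 and 154 FPKM in wild-type libraries 1 and 2. The YAP-null embryo library was therefore at 37.2% of the wild-type embryo level of Yap1 transcript. Yap1 was higher in YAP-null embryos than in YAP-null oocytes, and lower in wild-type embryos than in wild-type oocytes. The origin of the Yap1 transcript in YAP-null embryos was not tested.

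Promoter sequences from RefSeq (GRCm38.p6, a later build than the mm9 positions of the FPKM tables) were matched by symbol for 7 of the 10 genes, with 9 start sites. The 250 bases before the start are printed, 5′ to 3′ on the strand of the gene, for 3 Gata genes with different stage patterns: Gata1, listed at 0 in oocytes and abundant in embryos, Gata2, low at both stages, and Gata3, present in oocytes. Capitals mark matches to the TEAD motif GGAATG, to the GATA motif AGATAA and its variants that begin with T or end with G, or to the AP-2 motif GCCNNNGGC, on either strand.
Gata1 (chrX:7967911-7968160, minus strand): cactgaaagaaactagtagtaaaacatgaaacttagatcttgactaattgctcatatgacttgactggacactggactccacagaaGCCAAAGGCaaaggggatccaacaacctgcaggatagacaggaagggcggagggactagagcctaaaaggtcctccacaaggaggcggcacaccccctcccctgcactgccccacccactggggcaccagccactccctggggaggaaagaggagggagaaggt
Gata2, downstream start (chr6:88198414-88198663, plus strand): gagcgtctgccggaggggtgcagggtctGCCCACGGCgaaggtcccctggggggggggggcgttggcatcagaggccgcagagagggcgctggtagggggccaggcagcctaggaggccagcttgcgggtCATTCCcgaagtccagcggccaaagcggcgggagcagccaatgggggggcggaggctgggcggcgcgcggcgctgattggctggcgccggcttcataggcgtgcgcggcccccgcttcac
Gata3 (chr2:9878601-9878850, minus strand): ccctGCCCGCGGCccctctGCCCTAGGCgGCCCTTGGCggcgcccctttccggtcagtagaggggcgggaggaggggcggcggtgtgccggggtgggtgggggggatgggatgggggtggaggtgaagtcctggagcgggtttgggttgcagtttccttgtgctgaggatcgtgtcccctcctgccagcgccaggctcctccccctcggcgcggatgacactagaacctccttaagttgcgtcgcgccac
None of the 9 windows held a GATA motif, which was found in 26.5% of all 32851 promoter windows of this length. A TEAD motif was found once, at the downstream start of Gata2 shown here, against 12.6% of all windows. AP-2 motifs numbered 3 at Gata3, of which 2 are 1 base apart, and 1 each at Gata1, the downstream start of Gata2 and Cdx2, and 13.7% of all windows held one. A match is a description of letters and not a bound site.

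Between the oocyte and the 4-cell embryo Gata1, Gata4, Gata6, Tfap2c and Id2 rose and Gata3 fell, while Cdx2, Eomes, Gata2 and Tfap2a averaged under 1 FPKM over the 6 libraries and were not tested. The stages were compared with limma on log2(FPKM + 1) over 6 libraries (2 at the 4-cell and 4 at the GV stage), with the genotype label as a covariate and p-values adjusted over 11451 genes. Of all genes tested, 28.2% were called higher at the 4-cell stage, 27.8% lower and 56% either way, so a call is common. The 2 stages did not overlap for 8 of the 10 genes, all but Cdx2 and Tfap2a, and for 70.4% of all genes tested. These are unlike sets, since Gata2 and Eomes are among the 8 genes but were not tested. The mean filter was met by 6 of the 10 genes, and Gata1, Gata6 and Id2 met it only through their embryo libraries and so had to differ. Gata3 met it only through its oocyte libraries and so had to differ as well.

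**Figure D1:**
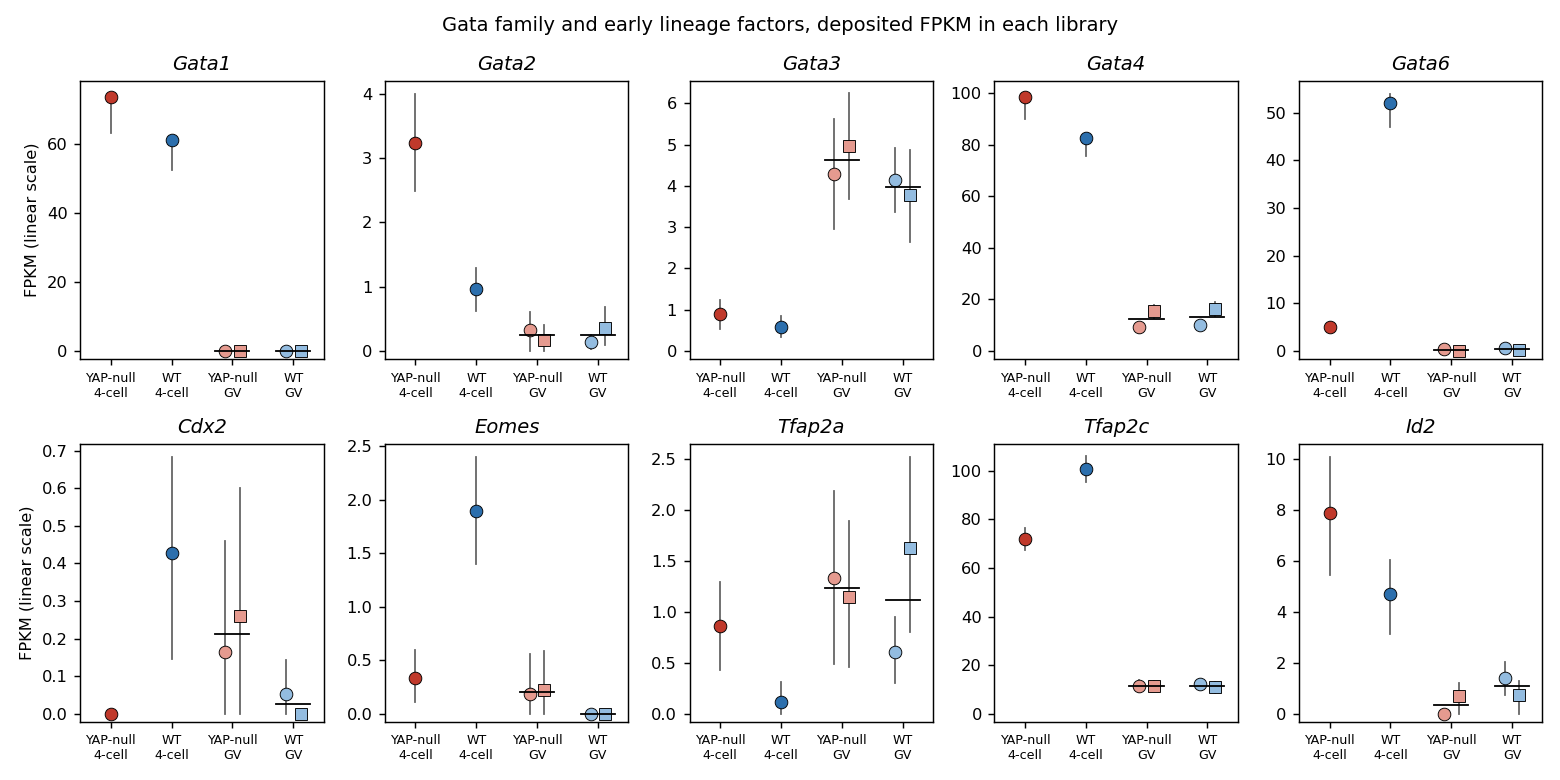
FPKM (linear axis, own scale in each panel) of the 10 genes in YAP-null 4-cell, wild-type (WT) 4-cell, YAP-null GV and wild-type GV libraries. Points are single libraries (circles for library 1, squares for library 2), grey lines their deposited bounds and black bars the mean of 2 libraries. Gata6 stands at 5.03 FPKM in YAP-null embryos and 52.1 FPKM in wild-type embryos, while Gata4 is at 98.4 and 82.8 FPKM.

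Gata1 (chromosome X, 7536386 to 7545036 in mm9), the blood cell member of the family, was at 73.6 FPKM (63.1 to 74.6) in YAP-null embryos and 61.2 FPKM (52.5 to 62.1) in wild-type embryos, and was listed at 0 in all 4 GV libraries. Both embryo libraries were thus far above every oocyte library. The stage difference was 6.09 ± 0.278 on the log2 scale (SE, limma adjusted p = 0.000121), a size set in part by the pseudocount because the oocyte value is 0. Gata1 is a master regulator of red cells, and RNA of blood cells was checked beside it. Of 14 blood markers, 11 were at 0 in the YAP-null and 3 in the wild-type embryo library, and their summed level was 42.3 and 108 FPKM, against 84.9 to 114 FPKM in YAP-null oocytes and 78.6 to 102 FPKM in wild-type oocytes, where Kit of the oocyte itself made up most of the sum. The red cell markers Klf1 and Alas2 were listed at 0 in YAP-null embryos, against 0.0776 and 0.175 FPKM in wild-type embryos. The 5 haemoglobin genes summed to 25.9 FPKM in YAP-null embryos and 93.5 FPKM in wild-type embryos, while Gata1 was higher by value in YAP-null. Hba-a1 and Hba-a2 are near-identical copies that counting may split. Beta-s, Hbb-b2 and Lyz2 were listed at 0 in YAP-null embryos, against 25.2, 15.9 and 9.59 FPKM in wild-type embryos. Kit went the other way, at 16.4 and 4.44 FPKM. The part of blood cell RNA in the Gata1 level was not tested.

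Gata4 (chromosome 14, 63817752 to 63864097), a primitive endoderm and heart factor, was already present in oocytes. It was at 98.4 FPKM (90.1 to 100.2) in YAP-null embryos and 82.8 FPKM (75.8 to 84.3) in wild-type embryos. In oocytes it was at 9.13 and 15.4 FPKM in YAP-null libraries 1 and 2, against 9.94 and 16.4 FPKM in wild-type libraries 1 and 2. The embryo mean was 7.13 times the oocyte mean, a log2 difference of 2.78 ± 0.377 (SE, limma adjusted p = 0.00151), and no embryo value overlapped an oocyte value. Within oocytes Gata4 was higher in library 2 than in library 1 by nearly the same amount in both genotypes, 0.69 in YAP-null and 0.67 in wild type on the log2 scale. The labels do not say what the replicate number stands for. Ovarian somatic cells also express Gata4 and Gata6. Their defining markers Fshr, Foxl2 and Amh had 0, 0.220 and 0 FPKM in YAP-null embryos, against 0, 0.179 and 0.141 FPKM in wild-type embryos. In oocytes the same markers ranged from 0.25 FPKM (Fshr) to 4.46 FPKM (Amh). The highest of the 18 listed markers there were Cyp19a1, at 9.51 to 13.6 FPKM, and Inha, at 6.12 to 15.6 FPKM. In embryos these 2 were at 0.938 and 0 FPKM in YAP-null, against 0.144 and 0.491 FPKM in wild type. The 18 granulosa, cumulus and theca markers summed to 64.6 FPKM in YAP-null embryos and 79.3 FPKM in wild-type embryos, of which Amhr2 alone gave 62.0 and 74.7 FPKM, and to 31.6 to 37.0 FPKM in YAP-null oocytes and 37.4 to 41.5 FPKM in wild-type oocytes. The part of these cells in the level of Gata4 was not tested.

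Gata6 (chromosome 18, 11052508 to 11085633), the other primitive endoderm factor, was at 5.03 FPKM (4.02 to 6.03) in YAP-null embryos and 52.1 FPKM (47.0 to 53.9) in wild-type embryos. In oocytes it was at 0.324 and 0.0848 FPKM in YAP-null libraries, against 0.543 and 0.181 FPKM in wild-type libraries. Every embryo value was above every oocyte value. The stage difference was 3.81 ± 0.652 on the log2 scale (SE, limma adjusted p = 0.00355). It depended on which embryo library was used, at 5.30 without the YAP-null 4-cell library (adjusted p = 0.00314) and 2.33 without the wild-type 4-cell library (adjusted p = 0.0158), in fits where the lone embryo library is assumed to vary like the oocyte libraries.

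Tfap2c (chromosome 2, 172375093 to 172384121), the AP-2 factor of trophoblast and germ cells, was at 72.0 FPKM (67.4 to 76.6) in YAP-null embryos and 101 FPKM (95.6 to 106) in wild-type embryos. Oocytes held 11.5 and 11.3 FPKM in YAP-null libraries, against 12.2 and 10.9 FPKM in wild-type libraries. Relative to its mean, the oocyte level was the steadiest of the 4 members over 1 FPKM there, 11.5 ± 0.539 FPKM (SD, n = 4), and the embryo mean was 7.53 times as high (log2 difference 2.79 ± 0.304, limma adjusted p = 0.000711). Id2 (chromosome 12, 25778664 to 25780957) was at 7.90 FPKM (5.45 to 10.1) in YAP-null embryos and 4.71 FPKM (3.13 to 6.02) in wild-type embryos. In oocytes it was at 0 and 0.694 FPKM in YAP-null libraries, against 1.39 and 0.743 FPKM in wild-type libraries. Its stage difference was 2.13 ± 0.412 (SE, limma adjusted p = 0.00574), and it no longer passed without the YAP-null 4-cell library (1.48, adjusted p = 0.0709).

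Gata3 (chromosome 2, 9778705 to 9800227), the Gata gene of the later trophectoderm, moved the opposite way. It was at 0.890 FPKM (0.519 to 1.24) in YAP-null embryos and 0.588 FPKM (0.326 to 0.848) in wild-type embryos, with overlapping bounds. Oocytes held 4.29 and 4.97 FPKM in YAP-null libraries, against 4.15 and 3.78 FPKM in wild-type libraries. The oocyte mean was 5.82 times the embryo mean and the log2 difference was -1.61 ± 0.270 (SE, limma adjusted p = 0.00330), so Gata3 transcript at this stage was lower than in the oocyte under both labels.

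The other trophectoderm factors were scarce. Cdx2 (chromosome 5, 148112476 to 148118825) was listed at 0 in YAP-null and at 0.427 FPKM (0.147 to 0.684) in wild-type embryos, and oocytes held 0.165 and 0.259 FPKM in YAP-null libraries, against 0.0520 and 0 FPKM in wild-type libraries. Eomes (chromosome 9, 118387307 to 118395250) was at 0.333 FPKM (0.110 to 0.591) in YAP-null embryos and 1.90 FPKM (1.40 to 2.40) in wild-type embryos, and at 0.187 and 0.217 FPKM in YAP-null oocytes, while both wild-type oocyte libraries were listed at 0. Cdx2 was thus under 1 FPKM in every library, and Eomes was over 1 FPKM in the wild-type embryo library alone. Tfap2a (chromosome 13, 40811044 to 40829192), an AP-2 factor of neural crest and skin, was at 0.863 FPKM (0.431 to 1.29) in YAP-null embryos and 0.117 FPKM (0 to 0.313) in wild-type embryos. Oocytes held 1.33 and 1.14 FPKM of Tfap2a in YAP-null libraries, against 0.610 and 1.63 FPKM in wild-type libraries. Gata2 (chromosome 6, 88148658 to 88157026), of blood stem cells and trophoblast giant cells, was at 3.23 FPKM (2.50 to 4.00) in YAP-null embryos and 0.959 FPKM (0.614 to 1.29) in wild-type embryos, and between 0.134 and 0.357 FPKM in all 4 oocyte libraries.

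In the YAP-null embryo library the order by FPKM was Gata4, Gata1, Tfap2c, Id2, Gata6, Gata2, Gata3, Tfap2a, Eomes and Cdx2, and the bounds of neighbours overlapped for Gata1 and Tfap2c, Id2 and Gata6, Gata3 and Tfap2a, and Tfap2a and Eomes. In the wild-type embryo library it was Tfap2c, Gata4, Gata1, Gata6, Id2, Eomes, Gata2, Gata3, Cdx2 and Tfap2a, with overlapping bounds for Gata1 and Gata6 and for each pair of neighbours from Gata2 down. In oocytes Gata4 and Tfap2c led, at 12.7 ± 3.70 and 11.5 ± 0.539 FPKM (SD, n = 4), and did not differ beyond their spread. They were followed by Gata3 at 4.30 ± 0.497 and Tfap2a at 1.18 ± 0.428 FPKM, while the remaining genes averaged under 1 FPKM.

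**Figure D2:**
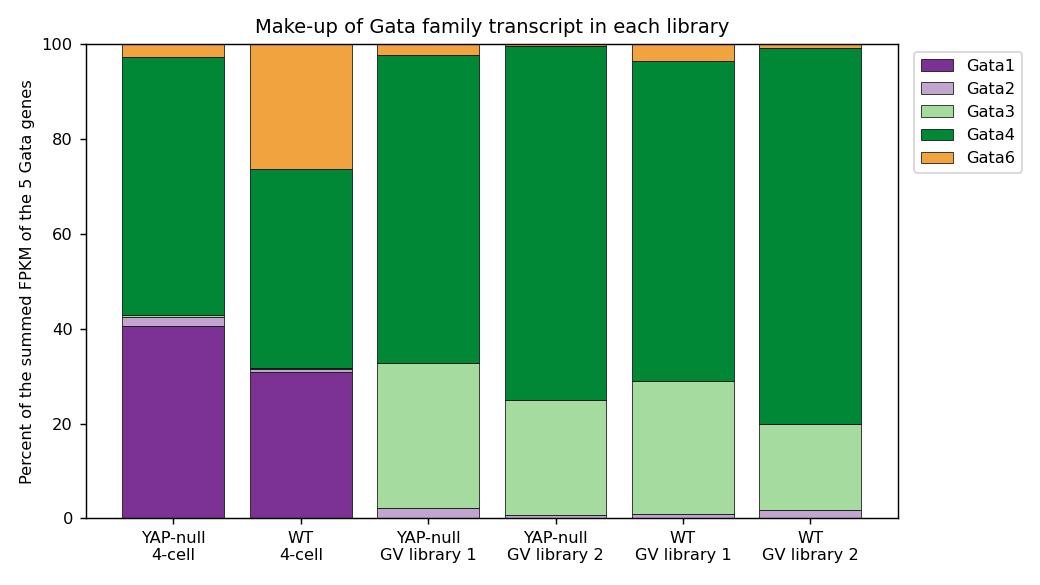
Percent of the summed FPKM of Gata1, Gata2, Gata3, Gata4 and Gata6 held by each gene, 1 bar per library. Gata6 makes up 2.78% of the YAP-null and 26.4% of the wild-type 4-cell bar, and Gata3 is visible in the oocyte bars alone.

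As a share of all Gata family transcript, Gata4 and Gata3 made up most in oocytes, Gata4 and Gata1 in YAP-null embryos, and Gata4, Gata1 and Gata6 in wild-type embryos. Gata4 made up 54.3% of the summed Gata FPKM in YAP-null embryos and 41.9% in wild-type embryos, Gata1 40.6% and 31.0%, and Gata6 2.78% and 26.4%. In oocytes Gata4 made up 64.9% and 74.6% in YAP-null libraries, against 67.3% and 79.2% in wild-type libraries, and Gata3 30.5% and 24.1% in YAP-null, against 28.1% and 18.2% in wild-type libraries. The summed level was 181 FPKM in YAP-null embryos and 198 FPKM in wild-type embryos, so the total was close while its make-up differed. It was 14.1 and 20.6 FPKM in YAP-null oocytes, against 14.8 and 20.7 FPKM in wild-type oocytes.

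The question of the 4-cell libraries was whether these factors differ in embryos labelled YAP-null. The 2 values of a gene have no replicate check, since each genotype has 1 embryo library, so no test was made and a gene was counted when log2(FPKM + 1) differed by at least 1 (2-fold). Gata6 was at 9.66% of the wild-type level (log2 difference -3.14) and Eomes at 17.5% (-1.12), and both were counted as lower. Gata2 was 3.37 times the wild-type level (1.11) and was counted as higher. Eomes met the mean of 1 FPKM only through its wild-type value and Gata2 only through its YAP-null value. Both therefore had to differ in the direction counted. Gata1 (0.26), Gata4 (0.25), Tfap2c (-0.48) and Id2 (0.64) were under 2-fold. Cdx2, Gata3 and Tfap2a averaged under 1 FPKM in these 2 libraries and were not counted. In YAP-null embryos 9.97% of the 10854 genes counted were 2-fold lower or more, 17.7% were 2-fold higher or more and 27.7% were either, and 2 of 7 members lower and 1 of 7 higher are small counts to set beside it. Of all 2-fold differences 64.0% were higher in YAP-null, 53.4% with quantile normalization and 75.4% with libraries rescaled to an equal sum. The median difference of the 7 genes was 0.25, against 0.05 over all genes counted.

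**Figure D3:**
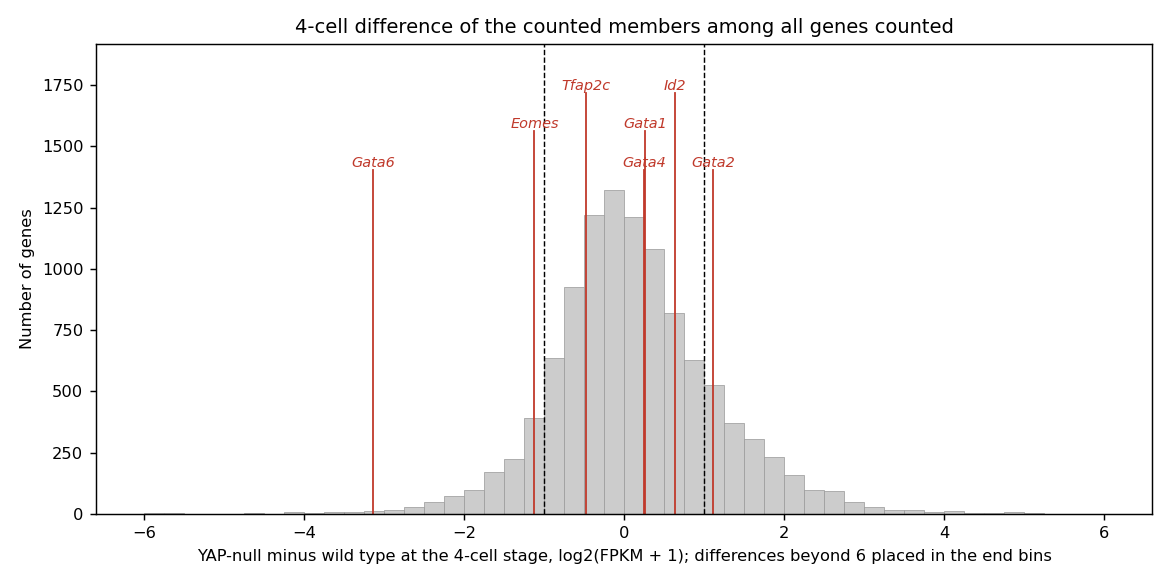
Histogram of the 4-cell difference (YAP-null minus wild type, log2(FPKM + 1), bins of 0.25) over 10854 genes, with red lines at the 7 counted members and dashed lines at 2-fold. Gata6 lies at -3.14, outside the bulk of the genes, and the other members lie within or near the dashed lines.

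The Gata6 difference stood far out among genes of any level. With Gata6 included, 34 of the 10854 genes had a difference as low or lower, and 27 of the 6257 genes (0.432%) that reached 10 FPKM in an embryo library did. Its deposited bounds in the 2 libraries were far from overlapping. Those of Eomes, Gata1, Gata2, Gata4 and Tfap2c did not overlap either, while those of Id2 did. The bounds are a weak guide in these libraries. Of 2771 genes used to judge them, 584 in the YAP-null and 669 in the wild-type 4-cell library had a value outside their own bounds. Bounds that do not overlap therefore do not show that a difference is more than measurement error or would recur in other embryos. The Gata6 difference stayed between -3.35 and -2.51 over all alternative settings. Eomes and Gata2, at a few FPKM, passed the 2-fold size by a small margin, and their differences came to -0.37 and 0.47 with a pseudocount of 5 FPKM. Gata2 was also under 2-fold with quantile normalization (0.80). In the YAP-null embryo library the oocyte markers Zp3, Gdf9 and Mos were at 172, 220 and 22.6 FPKM, against 52.1, 19.9 and 0.414 FPKM in wild-type embryos, and all 10 oocyte markers were at least 2-fold higher. Their part in the differences of the members was not tested. Among the 3228 genes that were called higher at the 4-cell stage, 11% were 2-fold lower or more in YAP-null embryos and 3.22% were 2-fold higher or more. Of the 5 members called higher, Gata6 was the 1 at least 2-fold lower.

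**Figure D4:**
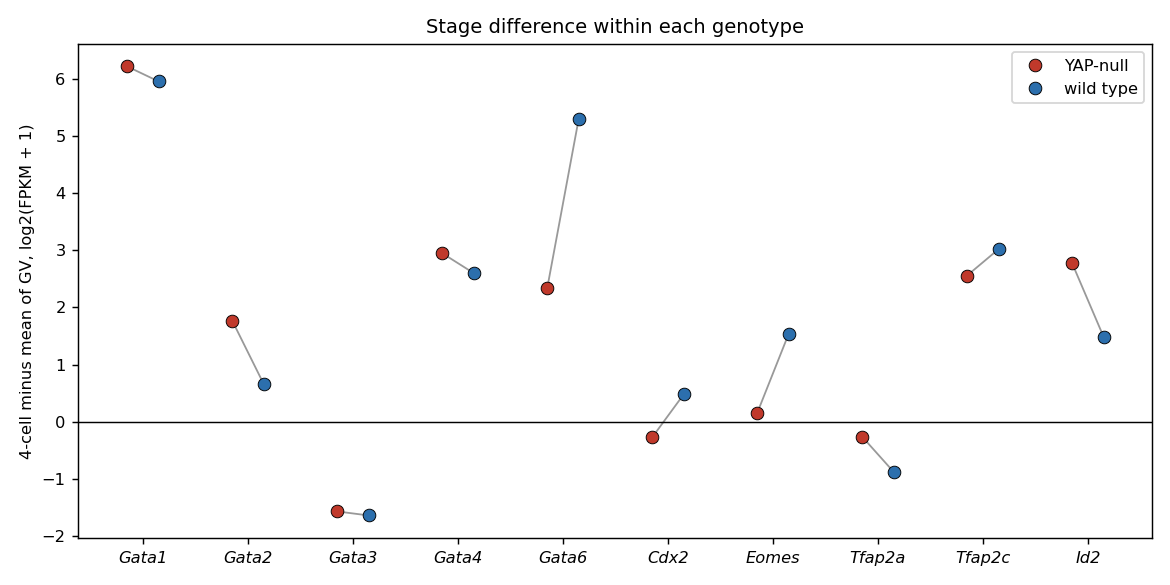
Stage difference of each gene (4-cell library minus the mean of the 2 GV libraries of the same label, log2(FPKM + 1)) in YAP-null (left, red) and wild type (right, blue). Gata6 is at 2.33 in YAP-null and 5.30 in wild type, while Gata1, Gata3, Gata4 and Tfap2c have pairs of points close together.

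Set against the oocytes of the same label, the stage difference of Gata6 was 2.33 in YAP-null and 5.30 in wild type on the log2 scale. Eomes had 0.15 in YAP-null and 1.54 in wild type, so the YAP-null embryo library was close to its oocyte libraries. Gata1 (6.22 and 5.96), Gata4 (2.95 and 2.60), Tfap2c (2.56 and 3.02) and Gata3 (-1.57 and -1.64) had similar values in YAP-null and wild type. Id2 had 2.77 and 1.48 and Gata2 1.77 and 0.66, in both cases more in YAP-null. Of all genes, 31% were 2-fold higher and 29.4% lower at the 4-cell stage in YAP-null, and 33.1% were higher and 35.3% lower in wild type. These are single embryo libraries, and the difference between the genotypes was not tested.

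In oocytes no tested member passed a test between the labels, which does not show that their levels were alike. The limma test of 2 YAP-null and 2 wild-type GV libraries called 0 of 10462 genes (0%) at an adjusted p of 0.05, with 22 genes at an unadjusted p under 0.05, and even Yap1 did not pass (unadjusted p = 0.00017, adjusted p = 1.00). The mean of 1 FPKM was met by 4 members. Their differences were 0.18 ± 0.354 for Gata3, -0.10 ± 0.459 for Gata4, 0.12 ± 0.397 for Tfap2a and -0.02 ± 0.342 for Tfap2c on the log2 scale (SE, limma adjusted p = 1.00 each). Gata3, Cdx2 and Eomes had both YAP-null values above both wild-type values, and Id2 had them below. Of these only Gata3 was among the 4 members tested, and 10.8% of all genes tested were as separate; with 2 libraries a group the smallest p an exact permutation test allows is 0.333.

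The genes closest to each member in profile were found as the smallest distance between log2(FPKM + 1) values over the 6 libraries, each gene centred on its own mean, among 11445 other genes. For Gata6 they were Tdgf1, which encodes a Nodal co-receptor (distance 0.60), Nt5c3l (0.647) and Frrs1 (0.941). Tdgf1 was at 6.48 FPKM in YAP-null embryos and 41.8 FPKM in wild-type embryos, Nt5c3l at 12.3 and 64.0 FPKM and Frrs1 at 5.86 and 25.1 FPKM. The nearest to Gata1 were H2-Q8, a histocompatibility gene with near-identical copies whose counts are uncertain (0.0439), the histone demethylase gene Kdm5b (0.335) and Itpkc (0.387). The nearest to Gata4 were Jhdm1d, Ankrd35 and Cstf2t (0.173 to 0.288), to Tfap2c Tle3, Phf17 and Pgam2 (0.0921 to 0.179), and to Id2 Atxn7l3b, Ints5 and Maf1 (0.471 to 0.521). The neighbours of Gata6 lie further off than those of Gata1, Gata4 and Tfap2c.

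Relatives and partners of these factors were read from lists of genes, each set beside the stage calls (28.2% higher, 27.8% lower of all genes tested) and the 2-fold counts at the 4-cell stage (17.7% higher, 9.97% lower in YAP-null). A gene that averaged under 1 FPKM in oocytes was tested for stage only through its embryo values and so had to differ. The number of such genes is given beside each count of genes that rose. Among genes that fell, Zglp1 and Zfpm1 averaged under 1 FPKM in embryos and so had to differ too. Likewise, a gene under 1 FPKM in 1 embryo library was counted at the 4-cell stage only through the other and had to be higher there. Among genes counted as 2-fold these were Trps1, Cited4, Tbx20, Tbx21, Id4, Ets2, Fgfr2 and Prdm14. Among 16 GATA-type zinc finger genes and GATA cofactors, 11 were tested for stage, 1 rose (0 under 1 FPKM in oocytes) and 5 fell. The gene that rose was Mta2, of the NuRD repressor complex, at 191 FPKM in both embryo libraries and 2.55 to 4.26 FPKM in oocytes. Gata5 was listed at 0 in all 6 libraries. At the 4-cell stage 1 of 9 counted genes was 2-fold higher, Trps1 (2.01 FPKM in YAP-null embryos and 0.0942 FPKM in wild type), and 1 lower, Gatad1 (1.14 and 3.55 FPKM), while the NuRD genes Gatad2b (68.0 and 63.7 FPKM) and Mta3 (80.1 and 151 FPKM) were under 2-fold. The median of the list was 0.00.

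Among 8 relatives and cofactors of the AP-2 factors, Tfap2e, an AP-2 gene of the oocyte, was at 28.0 FPKM in YAP-null embryos and 5.80 FPKM in wild-type embryos and at 139 to 202 FPKM in oocytes, and fell between the stages (limma adjusted p = 0.00227). Its oocyte level was above that of any member. The AP-2 coactivator gene Cited1, which rose, was at 184 FPKM in YAP-null embryos and 412 FPKM in wild-type embryos, and its relative Cited2, which fell, was at 2.66 and 6.87 FPKM. Of 5 counted genes of this list 2 were 2-fold higher (Tfap2e and Cited4) and 3 lower, with a median of -1.08, and of 4 tested for stage 2 rose (both under 1 FPKM in oocytes) and 2 fell. Of 11 caudal and T-box relatives 4 were counted, with a median of -1.49, and of 2 tested for stage Tbx3 rose (under 1 FPKM in oocytes) and Tbx4 fell. Tbx3 was at 7.48 FPKM in YAP-null embryos and 27.9 FPKM in wild-type embryos, Tbx20 was listed at 0 in YAP-null and at 5.72 FPKM in wild-type embryos, and Tbx4, abundant in oocytes at 72.8 to 88.7 FPKM, was at 15.3 and 1.30 FPKM. Of these 4 genes 1 was 2-fold higher and 3 were lower, and Tbx20 and Tbx21 were counted only through their wild-type value. Among 8 Id and E-protein genes 6 were counted, 2 higher and 2 lower, with a median of 0.19, and of 5 tested for stage 2 rose (1 under 1 FPKM in oocytes) and 0 fell. Id3, unlike Id2, was at 7.67 FPKM in YAP-null embryos and 40.5 FPKM in wild-type embryos, and Hand1, a trophoblast giant cell factor listed at 0 in every oocyte library, was at 28.5 FPKM in YAP-null embryos and 77.4 FPKM in wild-type embryos. Tcf3, which encodes an E protein that Id proteins bind, was at 20.1 and 19.9 FPKM.

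**Figure D5:**
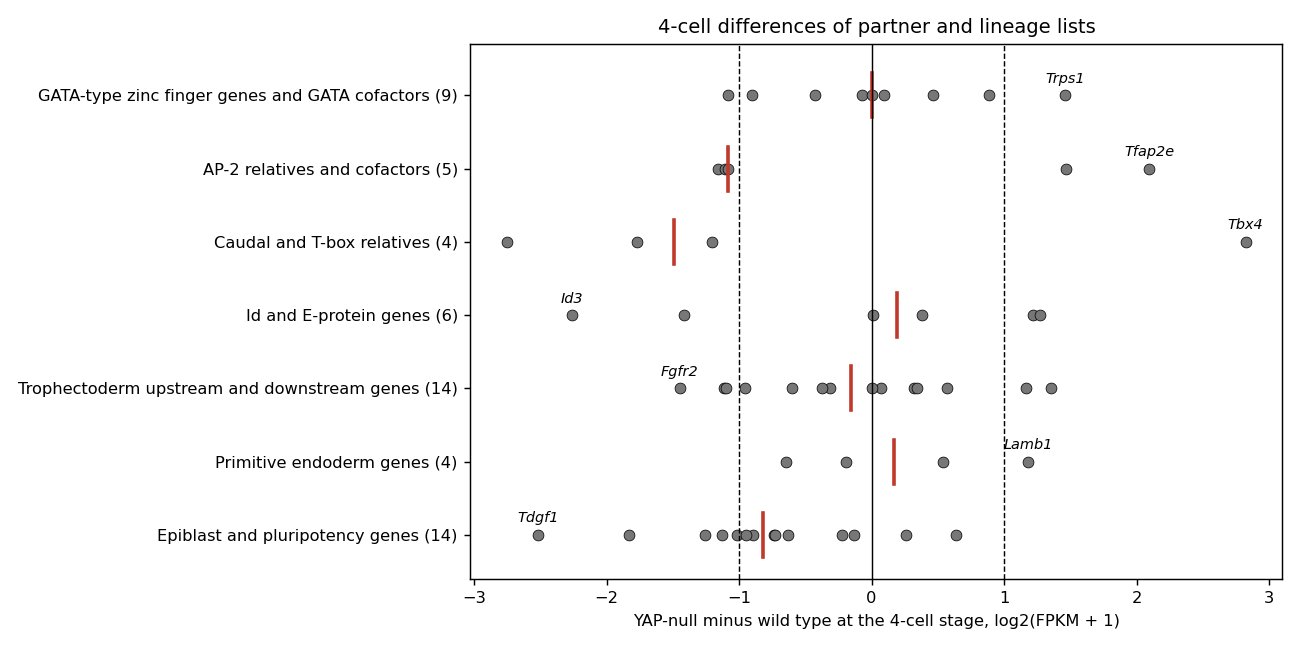
4-cell difference (YAP-null minus wild type, log2(FPKM + 1)) of each counted gene in 7 lists, with the number counted in brackets, red bars at the medians and dashed lines at 2-fold. Each list has its gene with the largest size of difference named, from Tdgf1 at -2.52 to Tbx4 at 2.82.

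Lineage lists placed the members in their setting. Of 18 trophectoderm genes upstream and downstream of the members, 14 were tested for stage, 7 rose (5 under 1 FPKM in oocytes) and 4 fell. Tead4, the DNA-binding partner of YAP, was at 40.4 FPKM in YAP-null embryos and 87.4 FPKM in wild-type embryos, and Klf5, an early trophectoderm and inner cell mass factor, at 48.6 and 106 FPKM. Both were under 1 FPKM in every oocyte library. At the 4-cell stage 2 of 14 counted genes were 2-fold higher and 3 lower, with a median of -0.15. Sox15 was under 2-fold (77.5 and 151 FPKM), Dab2 higher (11.4 and 3.85 FPKM) and Fgfr2 lower (0.922 and 4.25 FPKM). Of 15 primitive endoderm genes 4 were counted and 1 was 2-fold higher, Lamb1, a laminin gene at 173 to 314 FPKM in oocytes. Sox17, another factor of that lineage, and Pdgfra averaged under 1 FPKM in embryos and were not counted. They went opposite ways. Sox17 was at 0.915 FPKM in YAP-null embryos and 0.320 FPKM in wild-type embryos, and Pdgfra at 0.363 and 1.10 FPKM. Of 7 primitive endoderm genes tested for stage 2 rose, Sparc and Amn (both under 1 FPKM in oocytes), and 2 fell, Lamb1 among them, and the median at the 4-cell stage was 0.17. Sparc, a matrix protein gene, was at 1.64 FPKM in YAP-null embryos and 3.12 FPKM in wild-type embryos, and Amn, which encodes amnionless of the visceral endoderm, at 5.81 and 3.70 FPKM. Of 15 epiblast and pluripotency genes 9 of 12 tested rose (6 under 1 FPKM in oocytes) and 0 fell. At the 4-cell stage 5 of 14 counted genes were 2-fold lower and 0 higher, with a median of -0.82. Pou5f1 was at 322 FPKM in YAP-null embryos and 207 FPKM in wild-type embryos, Dppa4 at 183 and 284 FPKM, Nr5a2 at 92.1 and 179 FPKM, and Prdm14 was listed at 0 in YAP-null and at 2.57 FPKM in wild-type embryos. In oocytes the limma test called 0 genes in each of the 7 lists.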

How the data were processed

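Messenger RNA was measured by paired-end sequencing in 6 mouse libraries of 60 oocytes or embryos each. CASAVA 1.8, TopHat and mm9 are named in the submitters' processing notes, while for the quantification tool nothing is given in the sources used. Gene tables of the authors hold FPKM values as deposited, with lower and upper bounds per gene, per the file headers. In each table of 23813 lines, 1 failed line was left out and loci of 260 symbols were summed, which left 23308 symbols. Titles gave the groups, since the source field calls the 4-cell samples oocytes.

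Values were compared as log2(FPKM + 1) for genes averaging 1 FPKM or more in the libraries of a comparison, with limma 3.58.1 in R 4.3.3 (limma-trend, two-sided, Benjamini-Hochberg adjusted p of 0.05). A fold change on this scale understates the change of low genes. The GV fit used 4 libraries without a replicate block. The stage fit used 6 libraries with genotype as covariate. On simulated data neither fit called the planted 2-fold differences, and each missed part of the larger ones at every size planted. A missing call therefore does not show that levels were alike. For 1 gene, 2 against 4 libraries allow an exact permutation p of 0.0667 at the smallest. The 4-cell genotypes were not tested.

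The 10 members, the gene lists and the tests were chosen with earlier results of these data known. From each of the 7 lists of relatives and lineage genes the text names the 3 genes highest at the 4-cell stage and up to 2 with the largest 4-cell difference. The same rule was set for the marker lists of other cell types, but these are given mainly as sums, and not every gene it names there is printed. Named outside the rule, with their values known, were Gata5, Sox17, Pdgfra, Kit, Klf1, Alas2, Fshr, Foxl2, Amh, Hbb-b2, Lyz2, Cyp19a1 and Inha. Also outside it were Zglp1, Zfpm1, Tbx21, Id4 and Ets2. Alternatives were other pseudocounts (0.1 and 5 FPKM), filters, scalings, a constant prior variance, a replicate block and leaving out each library.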

Additional observations from a re-analysis of the deposited data

Results flagged for a closer look

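Several low members had opposite signs in groups under the same contrast, and none of these differences between groups was tested. Cdx2 was lower in the YAP-null 4-cell library than in both YAP-null oocyte libraries (-0.28 on the log2 scale, against their mean) and higher in the wild-type 4-cell library than in both wild-type oocyte libraries (0.48). Its genotype difference was -0.51 at the 4-cell stage and 0.24 in oocytes, at under 1 FPKM throughout. Eomes was lower in YAP-null at the 4-cell stage (-1.12) and higher by value in oocytes (0.27), where both wild-type libraries were listed at 0. Id2 went the other way, 0.64 at the 4-cell stage and -0.65 in oocytes, where YAP-null library 1 was listed at 0.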

How the results depend on the processing

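The 4-cell difference of Gata6 was at least 2-fold lower in YAP-null under all alternatives run. The stage calls of Gata1, Gata3, Gata4, Gata6 and Tfap2c held under each alternative in which they were tested, and that of Id2 under each but the one named above; Gata3 and Id2 were not tested at a mean of at least 5 FPKM. The oocyte differences of members passed under none (adjusted p of 0.999 to 1.00); leaving out 1 library moved them over -0.45 to 0.25 for Gata4, -0.23 to 0.47 for Tfap2a and -0.091 to 0.055 for Tfap2c. The sign turned without YAP-null library 1 (0.25) or wild-type library 2 (0.23) for Gata4 and without wild-type library 1 for Tfap2a and Tfap2c; the cause was not tested. Genes called in oocytes numbered 2 with the replicate block (1 higher, 1 lower, no member), and leaving out 1 library gave 2 to 7 (1 to 5 higher, 1 to 2 lower). Deviations of same-numbered oocyte libraries correlated at 0.849 across genes, but no label says that a number marks a shared female or day, and the 4-cell libraries carry no number to pair. Genes called between stages ranged from 2965 to 6332 without 1 library (1650 to 3182 higher, 1315 to 3171 lower), against 6408, lowest without the wild-type 4-cell library and 4215 without the YAP-null one. Genes at least 2-fold apart at the 4-cell stage fell to 1275 (834 higher, 441 lower) with a pseudocount of 5 FPKM and to 1723 (1083 higher, 640 lower) at a mean of at least 5 FPKM, against 3007, as fewer low genes count. The share higher was 64.0% as deposited, 53.4% with quantile normalization and 75.4% with equal library sums, under which all genes had a median of 0.23. Genes 2-fold lower between stages fell to 2125 in YAP-null and 2628 in wild type with a pseudocount of 5 FPKM, against 3353 and 4046. Read totals are unknown, and values under 1 FPKM rest on few fragments.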
